A study of Vitis amurensis with 6 samples.

Results

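The genes described here are those whose transcript level stayed nearly level in leaves of Vitis amurensis, a cold-hardy wild grape of north-east Asia, whether or not the plants had been chilled. They were chosen by their measured values: a mean of at least 20 FPKM over 6 libraries, and a highest library at most 15% above the lowest. FPKM is a read or fragment count divided by the gene's length and by the size of the library. The rule gave 236 genes. They make up 4.52% of the 5227 genes that average 20 FPKM or more and 0.741% of the 31845 identifiers in the authors' table. The cold group held 3 libraries from leaves of wild-type, 1-month-old in vitro plants moved to a chilled incubator at 4 °C for 2 h in constant light of about 100 µmol per square metre and second. The control group held 3 libraries from leaves of untreated plants of the same age and genotype at 26 °C in the same light. All plants came from monthly subculture on B5 medium with the auxin IBA. Whether the replicates of a group are separate plants is not stated in the labels, so the spread between them may be technical. Nor do they state the hour of sampling, so the time passed and the move itself cannot be told apart from temperature.

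Transcripts that keep a fixed share of the messenger RNA are the usual yardstick of quantitative PCR: the level of a gene under study is divided by that of a reference gene, or by the geometric mean of several, measured in the same sample. Such a gene is useful when it does not move with the treatment and when its level lies near that of the genes to be measured. Genes for actin, tubulin, translation elongation factors, ubiquitin and glycolytic enzymes have long been used this way in plants, and their constancy has to be checked for each tissue and stress. Chilling is a demanding case, because many genes of a grape leaf change within hours.

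The file pairs no identifier with a gene name, and no annotation of the identifiers was used here. Which of the 236 genes are such conventional reference genes was therefore not determined, the leaf label was not checked against marker genes, and no gene is given a function. FPKM is a share of a library: in bulk leaf RNA, fewer cells of a type and less RNA per cell cannot be told apart, and total RNA per leaf was not measured.

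By the library totals that the FPKM values imply, every cold library was deeper than every control library. The implied totals were 18773557 to 21217704 reads in cold and 16437001 to 16657708 reads in control. Depth thus cannot be told apart from the treatment. Replicate libraries differed by more than counting error. The mean chi-square per gene between the reads of a pair of libraries, which is about 1 under counting error alone, was 11.3 to 33.5 among cold and 12.9 to 65.7 among control libraries. Both pairs with control library 1 were above the others (45.5 and 65.7).

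The constant genes spanned mean levels of 20.1 to 1019 FPKM, a range of 50.7-fold, with a median of 39.8 FPKM. Their median was close to the 40.9 FPKM of all genes of at least 20 FPKM, whose highest gene stood at 11148 FPKM. Most of the constant genes were of moderate level: 215 of 236 (91.1%) lay under 100 FPKM and 21 at or above it. The share of genes that met the limit was 4.71% from 20 to 30 FPKM (77 of 1636), 4.46% from 30 to 50 FPKM (67 of 1502) and 5.84% from 50 to 100 FPKM (71 of 1215). It was 2.41% from 100 to 200 FPKM (13 of 540) and 2.40% at 200 FPKM and over (8 of 334). The highest library exceeded the lowest by a median of 12.3% in the constant genes, with quartiles of 9.59% and 13.6%, and by 51.9% in all genes of at least 20 FPKM. The coefficient of variation (CV, the SD over the 6 libraries divided by their mean) had a median of 4.31% in the constant genes and 16.4% in all genes of at least 20 FPKM. These values were used by the rule and describe it.

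**Figure D1:**
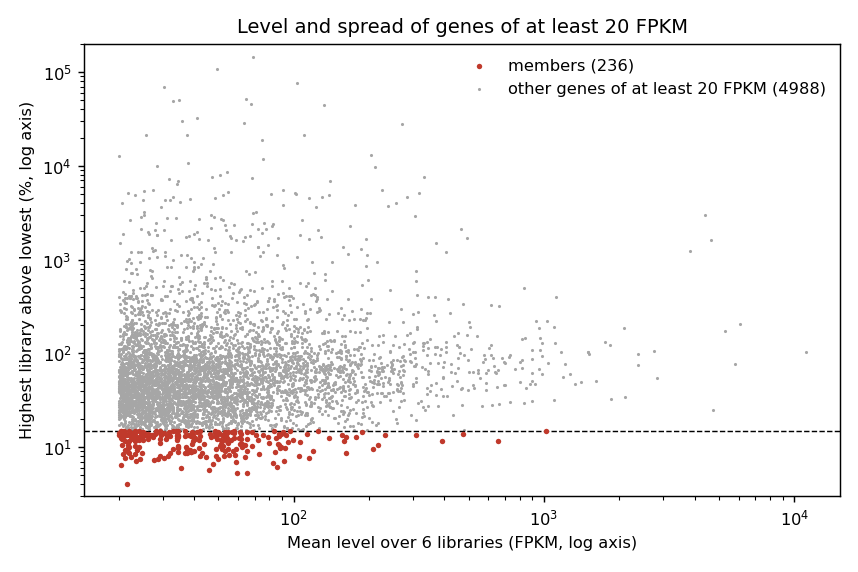
Mean level over the 6 libraries (FPKM, log axis) against the percentage by which the highest library exceeded the lowest (log axis), for genes of at least 20 FPKM. The 236 members lie under the dashed limit of 15% and reach up to 1019 FPKM; 3 genes with a library at 0 are not drawn.

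The gene with the smallest spread was VIT_204s0008g02490, of chromosome field 04. It had 21.3, 21.9 and 21.9 FPKM in cold libraries 1, 2 and 3, against 21.1, 21.4 and 21.8 FPKM in control libraries 1, 2 and 3. The groups overlapped, and the highest library stood 4.0% above the lowest. Behind these levels were 1044 to 1383 reads per library, and the CV of 1.63% was below the 2.94% that counting error alone gives at this depth. Its rank among genes at or below counting error is thus not resolved by these reads. Its group means were 21.7 ± 0.339 FPKM in cold and 21.4 ± 0.367 FPKM in control (SD, n = 3 each).

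The next 4 genes by spread also had overlapping groups. VIT_209s0070g00580 had 63.3, 64.8 and 66.4 FPKM in cold, against 66.6, 64.6 and 64.7 FPKM in control. VIT_216s0098g00830 had 61.6, 59.5 and 59.5 FPKM in cold, against 58.5, 58.9 and 59.6 FPKM in control. For these 2 genes the highest library was 5.24% and 5.35% above the lowest, and the highest was a control library in VIT_209s0070g00580 and a cold library in VIT_216s0098g00830. VIT_207s0005g01800 had 47.1, 46.3 and 46.0 FPKM in cold, against 45.2, 46.4 and 44.6 FPKM in control. VIT_204s0008g03410 had 35.0, 36.0 and 36.9 FPKM in cold, against 34.9, 36.1 and 34.9 FPKM in control. In VIT_204s0008g03410 control library 2 lay between the cold libraries, and the whole range was 5.95%.

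VIT_206s0004g00120 was the highest of the 10 genes with the smallest spread. It had 84.3, 84.8 and 88.5 FPKM in cold, against 87.6, 86.7 and 83.4 FPKM in control. Its group means were equal at the precision given, 85.9 ± 2.30 FPKM in cold and 85.9 ± 2.17 FPKM in control (SD, n = 3 each). VIT_217s0000g01650 was the lowest of the 10. It had 20.6, 19.8 and 21.1 FPKM in cold, against 20.3, 20.8 and 20.6 FPKM in control, and the cold libraries lay on both sides of the control libraries. VIT_203s0091g00360 had 48.5, 45.5 and 48.4 FPKM in cold, against 48.0, 47.7 and 47.7 FPKM in control. Its spread of 6.63% came from cold library 2 alone, while the control libraries had an SD of 0.206 FPKM.

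In 2 of these 10 genes the groups did not overlap, though the whole range was at most 6.98%. VIT_218s0001g05680 had 84.2, 85.1 and 85.3 FPKM in cold, against 80.0, 80.3 and 80.5 FPKM in control. All 3 cold libraries stood above all 3 control libraries, with a log2 ratio of group means of 0.08. VIT_215s0046g03680 had 61.0, 58.8 and 61.1 FPKM in cold, against 57.2, 57.8 and 57.1 FPKM in control, again with every cold library above every control library. In the values as deposited, a small overall range thus held some genes with a narrow but complete separation of the groups. The groups stood apart in 61.7% of all genes of at least 20 FPKM. In the 2 genes the log2(FPKM + 1) changes were 0.08 and 0.07 as deposited. They were -0.005 and -0.015 under median-of-ratios scaling, which sets the typical gene to no change. The geometric mean of the 10 genes was 47.6, 47.1 and 48.3 FPKM in cold, against 46.8, 47.2 and 46.7 FPKM in control, a range of 3.52%.

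**Figure D2:**
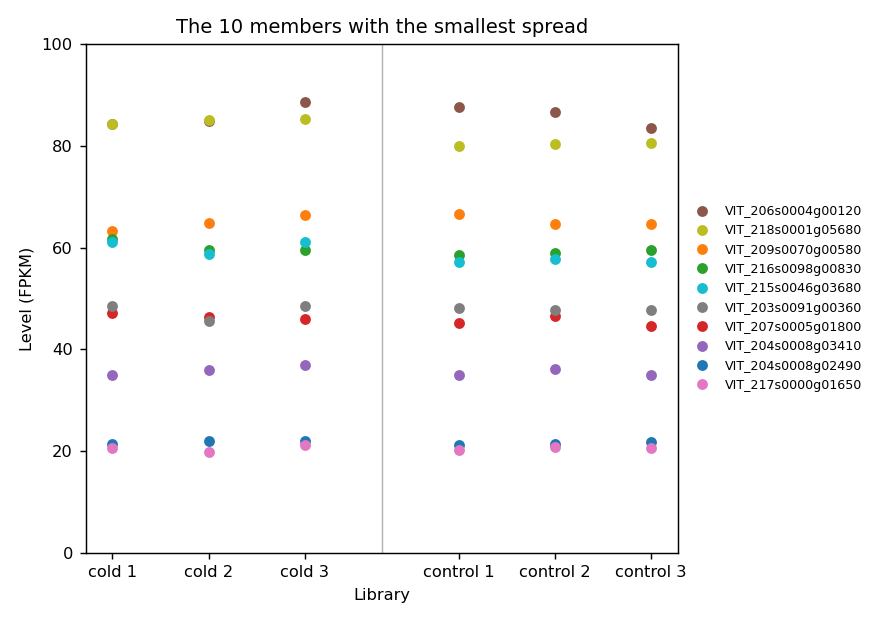
Level (FPKM, linear axis from 0) of the 10 members with the smallest spread in each cold library (left) and control library (right), one colour per gene. Their means run between 20.5 and 85.9 FPKM, and no gene's highest library is more than 6.98% above its lowest.

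The narrowest ranges were wider in the classes from 100 FPKM up. These held 13 and 8 members, against 67 to 77 in each lower class. A class of fewer members can have a wider narrowest range for that reason alone. The narrowest from 100 to 200 FPKM was VIT_202s0025g01510, with 115.8, 115.1 and 115.1 FPKM in cold, against 116.6, 117.2 and 108.9 FPKM in control. Only control library 3 stood apart, and the other 5 libraries lay between 115.1 and 117.2 FPKM. At 200 FPKM and over the narrowest was VIT_212s0035g01940, with 212, 216 and 203 FPKM in cold, against 208, 197 and 214 FPKM in control, a range of 9.52%. This gene is short, with an implied length of 265 bases, and had 858 to 1139 reads per library.

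The geometric mean of 5 genes, the narrowest of each level class (VIT_204s0008g02490, VIT_207s0005g01800, VIT_209s0070g00580, VIT_202s0025g01510 and VIT_212s0035g01940), was steadier than each of them. It was 69.0, 69.6 and 69.0 FPKM in cold, against 68.8, 68.3 and 68.1 FPKM in control, a range of 2.16%. The genes were picked on these same libraries, so the range describes them and does not forecast other samples.

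The 3 most abundant members lay far above the median level of the set. VIT_219s0177g00040 had 1055, 1046 and 1068 FPKM in cold, against 929, 1048 and 970 FPKM in control. Control library 2 lay among the cold libraries, and control library 1 set the range of 14.9%. VIT_218s0122g01190 had 624, 644 and 654 FPKM in cold, against 693, 623 and 696 FPKM in control, with control libraries 1 and 3 on top. VIT_212s0028g02340 had 481, 502 and 503 FPKM in cold, against 465, 458 and 441 FPKM in control, and its groups did not overlap. The fourth, VIT_218s0001g03580, chosen for mention after its values were seen, averaged 390 ± 11.5 FPKM in cold and 391 ± 23.8 FPKM in control (SD, n = 3 each).

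Genes at the edges of the rule differed little across them. Just inside the limit of 15% were VIT_215s0046g03670, VIT_205s0020g02850 and VIT_211s0016g00700, with a highest library 14.96%, 14.97% and 14.98% above the lowest. Just outside were VIT_204s0044g00550, VIT_218s0001g11380 and VIT_216s0100g00530, at 15.03%, 15.04% and 15.11%. At the lower end of level the rule kept VIT_205s0029g00060, VIT_205s0077g00140 and VIT_216s0039g02660, with means of 20.1, 20.2 and 20.4 FPKM. It left out VIT_214s0171g00450, VIT_208s0056g00440 and VIT_205s0094g00910, which were within the limit at means of 19.9, 19.8 and 19.5 FPKM.

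The rule asks for agreement within the groups as well as between them. Of the 5227 genes of at least 20 FPKM, 2792 (53.4%) were within 15% among the 3 cold libraries and 1922 (36.8%) among the 3 control libraries. Within both groups taken separately the limit was met by 1262 genes (24.1%), and 236 of these (18.7%) also met it over all 6 libraries. The other 1026 genes were within the limit inside each group and past it over all 6 libraries. The cold and control libraries stood fully apart in 894 of them and overlapped in 132. By the group mean 628 of the 1026 were higher and 398 lower in cold, with a median absolute log2 ratio of 0.30. Of all 5227 genes the groups stood apart in 61.7%, with 3038 higher and 2189 lower in cold and a median absolute log2 ratio of 0.33. Genes close inside each group but past the limit over all 6 libraries differ mainly between groups by this choice. Nothing is read from these counts.

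Between cold and control the 236 constant genes differed by log2 ratios of group means from -0.17 to 0.16, with a median of 0.02. The cold mean was the higher in 138 and the lower in 98. Cold and control libraries overlapped in 180 of the 236. In 37 genes every cold library lay above every control library, and in 19 every cold library lay below. These 56 genes were 23.7% of the 236, against 61.7% of the 5227 genes of at least 20 FPKM (1938 above and 1285 below). Among all 17155 genes tested, 31.6% lay above and 19.7% below. The log2 ratios were 0.05 to 0.16 in the 37 genes and -0.17 to -0.07 in the 19. The rule bounds these differences, so nothing is read from their size or number.

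In a fit across all 17155 genes that average 1 FPKM or more (limma-trend on log2(FPKM + 1), two-sided, Benjamini-Hochberg adjustment), 34.4% of genes were called at an adjusted p under 0.05. None (0) of the 236 constant genes was called by limma-trend. By limma-voom on the recovered reads 0 of the 236 were called, where 5953 of all 17155 genes tested were. At an unadjusted p under 0.05 each tool gave 1 of the 236, where limma-trend gave 45.5% of all genes tested. The share of all genes at this threshold was not taken for limma-voom. The 1 member was VIT_213s0019g02310 under both tools. It had 52.6, 53.0 and 54.4 FPKM in cold, against 60.1, 59.9 and 59.9 FPKM in control. Every cold library was lower than every control library, and its log2 change was -0.17 (standard error 0.06; adjusted p = 0.086 by limma-trend). It was also the member with the largest log2 ratio of group means in either direction. These counts follow from the rule, which used the same values.

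The spread of the constant genes was small enough to be set beside counting error. The whole reads behind the FPKM values could be recovered, and they gave the constant genes 320 to 76153 reads per gene and library. The CV expected from counting error alone had a median of 2.56%, against the observed 4.31%, and the median ratio of observed to counting CV was 1.63. In 23 of the 236 genes (9.75%) the observed CV was at or below that of counting error, 6 of them among the 10 with the smallest spread. The order of such genes by spread is not resolved by these reads. A dispersion index was taken as the squared deviations of the reads from a common share of each library, divided by their expectation and by the 5 degrees of freedom, so that 1 stands for counting error alone. Its median was 2.58 in the constant genes and 39.8 in all genes of at least 20 FPKM. It was under 1 in 21 of the constant genes and in 25 of all 5227. The index and the CV measure the same spread that the rule chose to be small, so these contrasts with all genes describe the rule.

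At high read numbers a gene could meet the limit and still vary well beyond counting error. VIT_219s0177g00040, with 52036 to 76153 reads per library, had an index of 180.2 and a CV of 5.49%. VIT_204s0008g02490 had an index of 0.311. In the constant genes the index was 10 or more in 13, against 4102 of the 5227 genes of at least 20 FPKM.

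**Figure D3:**
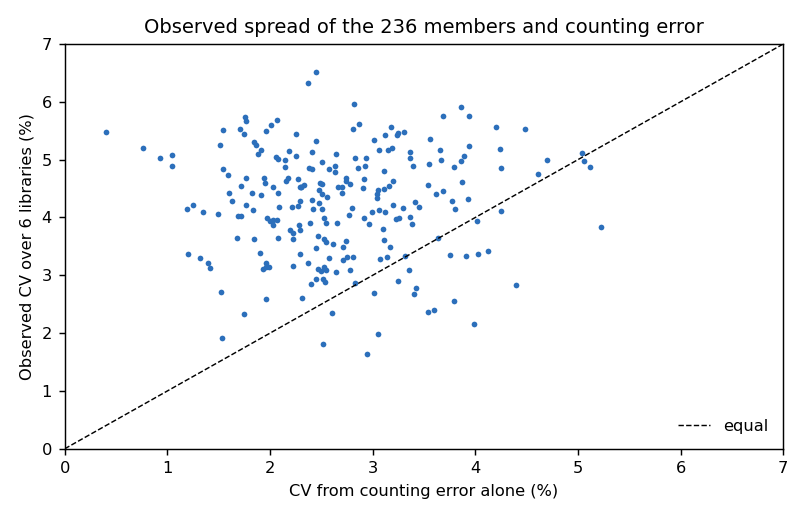
Observed CV over the 6 libraries (%) against the CV that counting error alone gives at the gene's reads (%), 1 point per member, with a dashed line where they are equal. In 23 of 236 members the point lies on or below the line; the member furthest left is VIT_219s0177g00040.

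The share of constant genes was lowest among genes of few reads, and low again among those of very many. Of genes with under 500 reads per library on average, 1.18% met the limit (6 of 508). The share was 4.93% from 500 to 1000 reads (56 of 1135), 5.89% from 1000 to 2000 (102 of 1731), 4.39% from 2000 to 5000 (60 of 1366) and 2.46% at 5000 reads and over (12 of 487). The median CV expected from counting was 5.35% in the lowest of these classes and 1.1% in the highest, while the median observed CV was 17.7% and 20.1%. By the length that the FPKM values imply, 2.50% of genes under 1000 bases were constant (25 of 999), against 4.97% from 1000 to 2000 bases, 5.17% from 2000 to 3000 bases, 5.30% from 3000 to 4000 bases and 3.97% at 4000 bases and over (14 of 353). The constant genes had a median length of 1934 bases and all genes of at least 20 FPKM one of 1807 bases. The part of read number in the difference by length was not tested.

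Which genes counted as constant depended on how the libraries were scaled to each other. The log2(FPKM + 1) change of all tested genes had a median of 0.08 in the values as deposited, so a gene with an equal FPKM in both groups stood slightly below the typical gene in cold. With median-of-ratios scaling, which sets the typical gene to no change, 316 genes met the rule. These held 142 of the 236 members (60.2% of the 236) and 174 other genes. The median log2 ratio of the 236 was then -0.07, with 201 lower and 35 higher in cold. Under quantile normalization 283 genes met the rule. These held 137 of the 236 members (58.1% of the 236) and 146 other genes. The median log2 ratio of the 236 was again -0.07. As TPM, where each library sums to the same total, 291 genes met the rule and 173 of them (73.3%) were among the 236, whose median log2 ratio was -0.01. The data hold no spike-in or other outside standard that would tell which scaling is the right one.

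Under all 4 scalings 108 of the 236 genes (45.8%) kept within the limit. They spanned means of 20.5 to 390.3 FPKM, with a median of 43.5 FPKM, and their log2 ratios as deposited lay between -0.05 and 0.15. All 10 of the genes with the smallest spread were among them. At 100 FPKM and over 6 of 21 were, among them VIT_202s0025g01510 and VIT_218s0001g03580, and the 3 most abundant were not. VIT_219s0177g00040 had a range of 10.4% under median-of-ratios scaling and 46.2% under quantile normalization. VIT_218s0001g05680, whose groups stood apart as deposited, narrowed to a range of 4.79% under median-of-ratios scaling and 2.60% under quantile normalization, while VIT_204s0008g02490 widened to 10.3% and 11.0%.

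**Figure D4:**
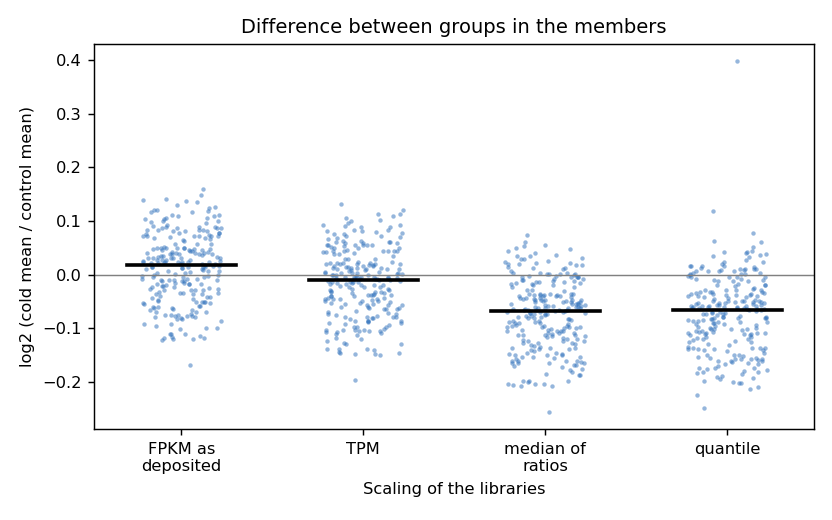
log2 of the cold mean over the control mean for each of the 236 members under 4 scalings of the libraries; each point is a gene and the black bar is the median. The median is 0.02 as deposited, -0.01 as TPM and -0.07 under both median-of-ratios scaling and quantile normalization; the single high point under quantile normalization is VIT_219s0177g00040.

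Each constant gene was also compared with the other members by a value that does not change when a library is rescaled: the SD over the 6 libraries of the log2 ratio of a pair of genes, averaged over all partners. It ran from 0.06 to 0.11, with a median of 0.08. The partners were themselves chosen as level in deposited FPKM in these libraries, so low values and their overlap with the smallest ranges follow from the rule and are no separate check of it. VIT_204s0008g02490 had the lowest value and VIT_213s0019g02310 the highest. Of the 10 genes with the lowest values, 7 were also among the 10 with the smallest range, and all 10 met the limit under the 4 scalings. The 3 that were not among those of smallest range were VIT_212s0178g00050, VIT_211s0016g04970 and VIT_208s0007g04210, at means of 27.6, 36.8 and 162.5 FPKM; they are named because the count is small.

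The summed level of the set in each library is given as a description, since members chosen to vary by at most 15% have sums that vary little. They held 2.85%, 2.88% and 2.92% of the reads in cold libraries 1, 2 and 3, against 2.83%, 2.87% and 2.83% in control libraries 1, 2 and 3. Their geometric mean was 44.6, 44.8 and 45.7 FPKM in cold, against 44.6, 44.7 and 44.6 FPKM in control. The groups overlapped in both measures, and cold library 3 was the highest in both. Cold library 3 was the top library for 79 of the 236 genes (33.5%) and the bottom one for 20 (8.47%). Control library 1 was most often the bottom one, for 53 genes (22.5%). These counts were not taken over all genes of at least 20 FPKM. The median-of-ratios factor was also highest in cold library 3, at 1.06 against 0.96 to 1.01 in the others.

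Each library was also left out in turn, and the genes chosen on the other 5 were looked up in it. The rule applied without a library gave 327, 291 and 400 genes when cold library 1, 2 or 3 was left out, and 493, 317 and 359 genes when control library 1, 2 or 3 was. Of the genes chosen without cold library 2, 81.1% met the rule over all 6 libraries, the highest such share. Of those chosen without control library 1 the share was 47.7%, the lowest, and 59.0% of those chosen without cold library 3 did. Each of these choices held 234 to 236 of the members, so the shares mostly restate the counts. In the library left out, the genes chosen on the other 5 deviated from their mean by a median absolute log2 difference of 0.06 (cold library 2) to 0.14 (control library 1). For all genes of at least 20 FPKM this deviation was 0.19 for cold library 2 and 0.26 for control library 1. The library left out was not used to choose these genes, but the other libraries of its group were. All genes of at least 20 FPKM include those that differ between cold and control. The smaller deviation of the chosen genes therefore follows in part from the rule and does not forecast other samples. By the counts, control library 1 limited the set most, and without it the rule gives 493 genes, against 236.

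**Figure D5:**
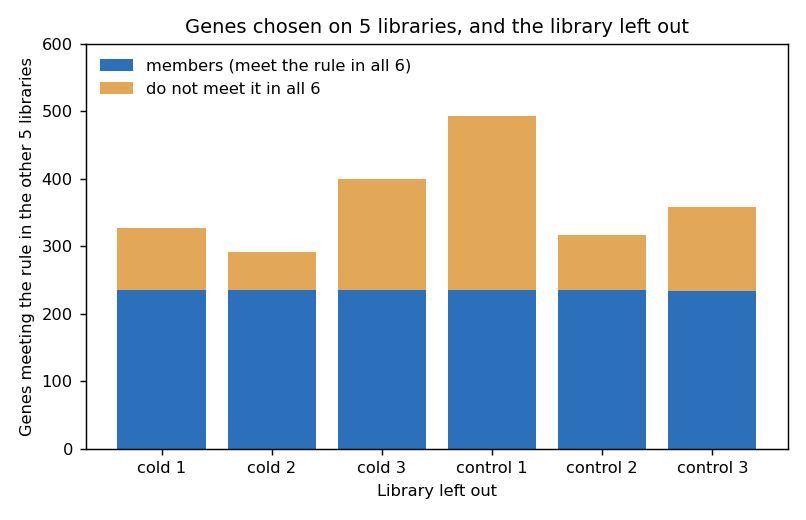
Number of genes that meet the rule in 5 libraries, by the library left out; the blue part are members, which meet it in all 6 libraries, and the orange part do not. The bar is tallest without control library 1 (493 genes) and lowest without cold library 2 (291 genes).

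The constant genes were spread over the genome as their identifiers record it. Grape identifiers of this form carry a chromosome field, where 00 stands for sequence not placed on a chromosome. All 19 placed fields held constant genes, in 90 scaffold fields counting the unplaced ones. The number per field ran from 5 of 137 genes of at least 20 FPKM (3.65%) in field 10 to 18 of 434 (4.15%) in field 18 and 18 of 291 (6.19%) in field 06. As a share, the highest was 8.64% in field 15 (14 of 162) and the lowest 2.46% in field 00 (7 of 284). In 5 cases the identifiers of 2 constant genes followed each other directly. One such pair was VIT_215s0046g03670, at 29.3 FPKM, with VIT_215s0046g03680, at 58.9 FPKM. Consecutive genes can be near-identical copies. The sources used here do not say how reads shared by copies or by overlapping genes were counted. Whether these pairs are copies or share reads was not tested, and their values may be uncertain for that reason.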

How the data were processed

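The authors deposited 1 table of FPKM values, with 31845 gene identifiers in 6 libraries, each matched to its sample by title. The tools DESeq2, HTSeq, STAR, cutadapt and FastQC are named, per the submitters' processing notes, with no versions or roles. Nothing in the sources used here gives the genome build, annotation, strand setting or counting mode. Values were used as deposited.

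Whole reads were recovered within 0.001 reads for 25054 of the 25054 genes above 0, from the common step of each gene's values. A value of 0 fits any length, so the full count is a weaker check for genes at 0 in a library. Of the 25054 genes 20133 were above 0 in all 6 libraries. The recovered reads summed to 99.4% to 99.6% of the implied library totals. A gene whose counts share a divisor may be given too few reads and too short a length. Intervals are not given; counting CVs cover counting error only. Cold and control libraries were compared with limma-trend (limma 3.58.1, R 4.3.3) on log2(FPKM + 1) for 17155 genes averaging 1 FPKM or more, at an adjusted p of 0.05, two-sided; fold changes on this scale understate those of low genes. Recovery and fit were tested on simulated data, with outcomes not given here. Other steps used Python 3.11.15, numpy 2.4.6 and pandas 2.3.3. Alternatives were other limits, scalings, filters and pseudocounts, limma-voom, a replicate block and leaving out each library.

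The members and lists were chosen with earlier results of these data known. Genes named are the 10 members of smallest range, the narrowest of each level class, the 3 highest and lowest by mean, and those at the edges of the rule; others are marked in the text or belong to a count of 5 or fewer. Lists fixed by annotated name could not be filled, since the table gives identifiers alone.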

Additional observations from a re-analysis of the deposited data

How the results depend on the processing

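The number of constant genes, 236, moved most with the limits of the rule. With the highest library at most 10%, 20% or 25% above the lowest it was 66, 520 and 885. With a mean of at least 50 FPKM it was 92 and with no filter on low values 448. It was 108 when the limit had to hold under all 4 scalings, an alternative chosen after seeing the data. A minimum of 10 FPKM, each other scaling alone, a pseudocount of 1 before the ratio and division by the members' geometric mean gave counts within 1.5 times the reported one. The count as TPM used a minimum of 20 TPM, a lower level than 20 FPKM. The number of constant genes by the reported rule is 236. This number was 291 to 493 when a library was left out.

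Genes called over all tested genes numbered 5901, and 3678 (without cold library 2) to 6926 (without control library 1) with a library left out. With a replicate block in the fit 4107 were called, and 0 of the members. Libraries of the same number deviated in opposite ways (from the group means, with correlations of -0.26 for number 1, -0.13 for number 2 and -0.28 for number 3), and 0 of the 3 cold libraries correlated best with the control library of its number. Of the members 0 were called in each setting but 2. Under median-of-ratios scaling 2 members were called, where 5751 of all 17155 genes tested were. They were VIT_213s0019g02310 and VIT_206s0004g01160, both lower in cold. Under quantile normalization 2 members were called, where 5828 of all genes tested were. They were VIT_213s0019g02310, lower, and VIT_219s0177g00040, higher in cold. The rule used the values of these same libraries, so nothing is read from the counts of members. The causes were not tested. Tests of conventional reference genes were not run, as no identifier has a name here.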
